A study of Mus musculus with 24 samples.

Results

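The 10 genes described here encode hormones, granins, an enzyme and a transcription factor of enteroendocrine cells, measured in mouse colorectal tissue. They were chosen by symbol: Chga, Chgb, Gcg, Pyy, Insl5, Sct, Neurod1, Tph1, Cck and Sst, 10 of the 24346 symbols in each expression table. All 10 had a row in all 24 tables, and 9 passed the filter on low values that left 13799 genes for testing. Neurod1 did not pass it and was tested separately. Expression was measured by RNA-seq as FPKM, fragments per kilobase of transcript scaled to each library's mapped fragments, which allows levels of different genes to be set side by side.

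All libraries, the wild-type ones included, came from colorectal tissue treated with AOM/DSS, the pairing of a carcinogen with a colitis-inducing polymer that produces colon tumors. No untreated tissue was among the samples analysed. The genotype label was c-MAF_KO for KO-1-hetero (3 tumor and 2 normal libraries), KO-8-hetero (3 and 2) and KO-8-homo (3 and 2). It was WT for the titles WT-young (4 and 2) and WT-old (1 and 2), where these short names combine the words of the sample titles. This gave 9 KO-labelled and 5 WT-labelled tumors, and 6 KO-labelled and 4 WT-labelled normal libraries. The labels do not explain the numbers 1 and 8, give no ages, do not say how the knockout was made or in which cells, and do not tie tumor and normal tissue to animals. They do not say that libraries of one title came from separate animals, so that p-values measure the spread between these libraries.

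Enteroendocrine cells are scattered hormone-releasing cells of the gut epithelium that arise, like goblet cells, from the secretory lineage. In the colon, L cells make the proglucagon peptides, peptide YY and insulin-like peptide 5, enterochromaffin cells make serotonin, and D cells make somatostatin. All of them store their products in dense-core granules, whose matrix is built by granins. The members vary in kind accordingly: Chga and Chgb are granins, Gcg, Pyy, Insl5, Sct, Cck and Sst are peptide hormone genes, Tph1 encodes the rate-limiting enzyme of serotonin synthesis outside the brain, and Neurod1 is a transcription factor of enteroendocrine differentiation.

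Several properties of the libraries bear on the values. Relative sequencing depth ranged from 0.697 to 1.84 of the median library. Maf, the gene that the genotype names, was not lower in the libraries labelled KO: Maf measured 2.62 to 7.40 FPKM in KO-labelled tumors and 1.63 to 7.26 FPKM in WT-labelled tumors, and the tables do not show whether a deleted part was counted. Xist, transcribed from the inactive X chromosome, was above 1 FPKM in 6 libraries, which were both normal libraries and 1 of 3 tumors of KO-1-hetero and of KO-8-hetero. It was at most 0.0719 FPKM in the other 18. In 4 of the 10 normal libraries (KO-8-homo 1 and 2, WT-old 1 and WT-young 1) Hoxb6 was 10.1 to 29.2 FPKM, against 0.148 to 0.977 FPKM in the other 6. Cela2a, an exocrine pancreas elastase, reached 429 FPKM in KO-8-hetero normal 1 and 573 FPKM in KO-8-homo normal 2. Epcam, a pan-epithelial adhesion gene, was between 418 and 1103 FPKM in all 24 libraries. The fits of tumor against normal tissue were repeated without each of these 3 sets of libraries.

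The members lie on different chromosomes, apart from 3 on chromosome 2 and 2 on chromosome 7, so they do not form one cluster. In GRCm38.p6, the RefSeq patch release of the mm10 build that the submitters' processing notes name, Gcg spans chr2:62474530-62483653, Chga chr12:102554941-102565027, Chgb chr2:132781642-132795079 and Sst chr16:23889573-23891342. RefSeq promoter windows were found for all 10 members, 13 windows in all, and the 250 bases upstream of the start were searched on both strands for 4 motifs that were picked after the sequences had been seen. The cyclic AMP response element was searched as TGACGTCA. A near variant of that element, differing at one letter, was searched as TGACGTAA. The E-box, of the class that NEUROD1 and its relatives bind, was searched as CAGATG. The box near many transcription starts was searched as TATAAA. None of these 4 motifs contains another. The 3 whole windows below are shown because Gcg fell in the tumors without any overlap between tissues, and because Chga and Chgb varied together among tumors. Motifs are in capitals and the sequences run 5′ to 3′ on the strand of the gene. The Gcg window is chr2:62483654-62483903 (minus strand), the Chga window chr12:102554691-102554940 (plus strand) and the Chgb window chr2:132781392-132781641 (plus strand).
Gcg: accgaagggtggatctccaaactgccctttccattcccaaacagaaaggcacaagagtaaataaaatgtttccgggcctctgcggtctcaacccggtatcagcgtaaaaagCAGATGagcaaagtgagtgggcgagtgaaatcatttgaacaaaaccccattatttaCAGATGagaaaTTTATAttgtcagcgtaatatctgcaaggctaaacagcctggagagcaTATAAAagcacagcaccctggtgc
Chga: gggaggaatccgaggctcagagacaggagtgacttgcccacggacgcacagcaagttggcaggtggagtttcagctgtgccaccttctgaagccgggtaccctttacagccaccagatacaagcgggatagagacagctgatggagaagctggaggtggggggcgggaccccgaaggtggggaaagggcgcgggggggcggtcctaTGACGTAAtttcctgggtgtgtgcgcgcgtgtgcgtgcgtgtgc
Chgb: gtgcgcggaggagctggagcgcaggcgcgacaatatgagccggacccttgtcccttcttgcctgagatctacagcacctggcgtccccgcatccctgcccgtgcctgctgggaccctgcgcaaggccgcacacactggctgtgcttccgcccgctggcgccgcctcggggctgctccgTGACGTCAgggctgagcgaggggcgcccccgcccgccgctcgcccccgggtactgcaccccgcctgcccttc

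The Gcg window held the E-box at 139 and 83 bases before the start and TATAAA or its reverse complement 2 times, whereas neither granin window held either motif. Chgb carried TGACGTCA and Chga the variant, with its first base 72 and 44 bases before the start. For comparison, 30-base stretches are shown around the same 2 motifs in Sst (chr16:23890874-23890903, minus strand) and Cck (chr9:121495707-121495736, minus strand).
Sst: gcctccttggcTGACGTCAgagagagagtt
Cck: gcactgggtaaaCAGATGactggctgcgaa
In Sst the motif TGACGTCA began 48 bases before the start, and in Cck the E-box began 30 bases before it. The Sst window, chr16:23890845-23891094, lies inside the gene span given above, so the start used for Sst is internal to that span. Over all genes, 1.55% of 32851 windows of this length held TGACGTCA, 0.447% held TGACGTAA, 14.4% held CAGATG and 12.4% held TATAAA. The E-box motif was also found upstream of Insl5 and Sct, 4 of the 10 members in all. Counted by gene in the same way, 16.3% of 27025 genes held it. The matches describe these letters and do not show that a factor binds there.

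Tumors held less mRNA of these genes than normal tissue under both genotype labels. The summed FPKM of the 10 members was 44.6 to 218 in the 14 tumors and 320 to 1134 in the 10 normal libraries, without overlap. Among the KO-labelled libraries, 8 of 9 tested members were lower in tumor (limma on log2(FPKM + 1), Benjamini-Hochberg adjusted p under 0.05), where 23.2% of all genes were called lower. Among the WT-labelled libraries 6 of 9 were lower, where 14.8% of all genes were. No member was called higher under either label, where 24.1% and 15.5% of all genes were. The median member difference was -2.27 on the log2 scale under the KO label and -1.65 under the WT label, beside 0.02 for all genes under each. In bulk tissue, fewer enteroendocrine cells and less RNA in each of them cannot be told apart. Rescaling each library to a constant sum (TPM) moved the median of all genes to 0.47 and 0.29 and the share of calls that were higher from 50.9% to 87.8% under the KO label and from 51.1% to 78.6% under the WT label. On that scale 5 of 9 members were called lower under each label, and the members' medians were -1.79 and -1.42.

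**Figure D1:**
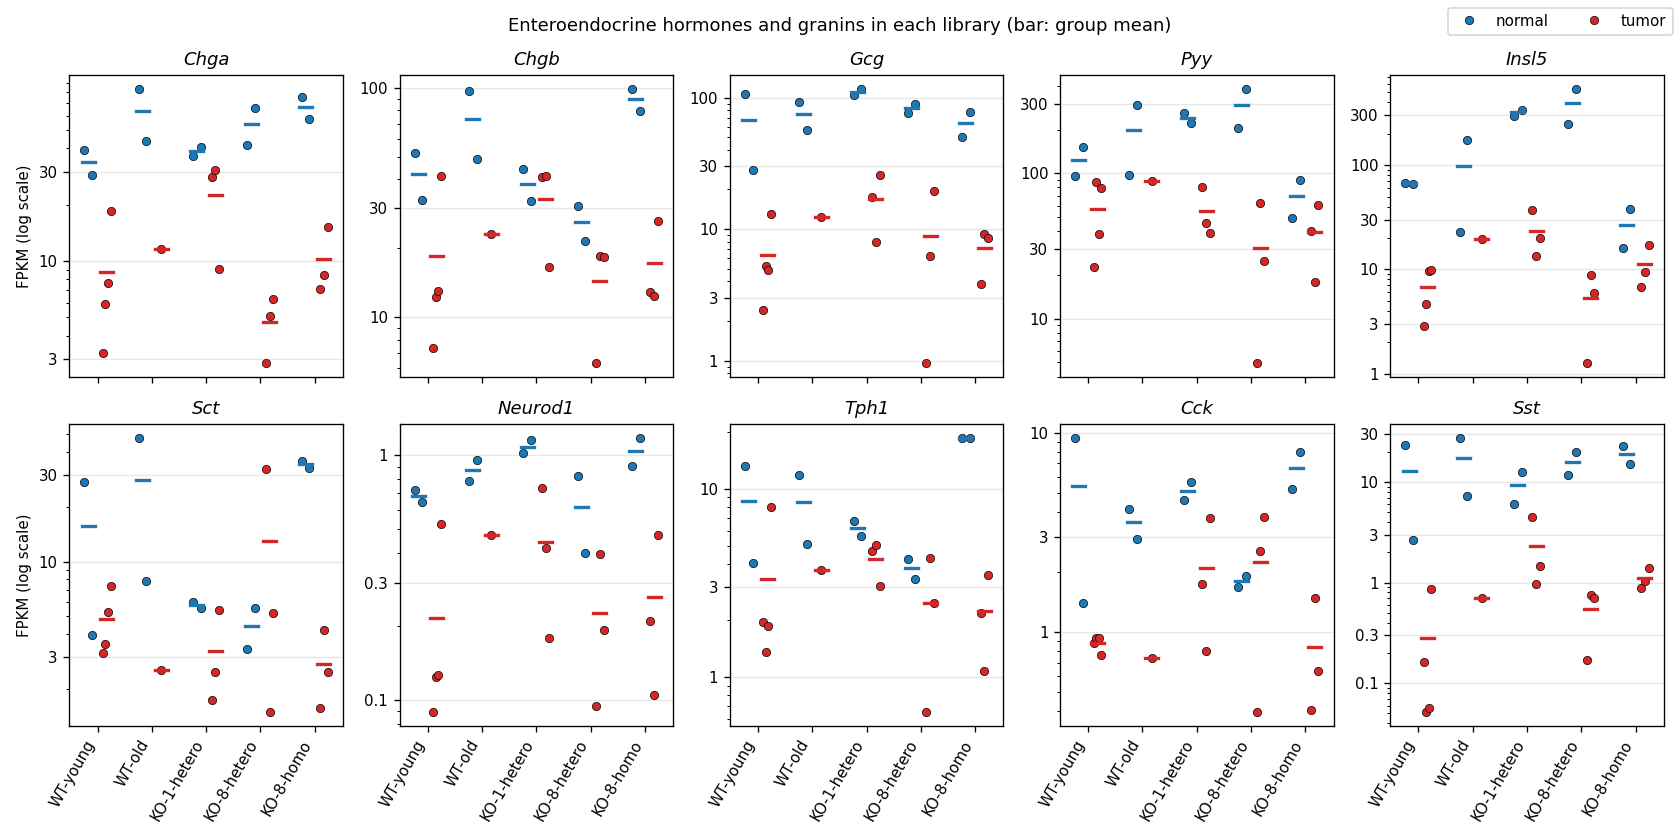
FPKM on a log axis for each of the 10 members, by title group, with normal libraries in blue and tumors in red, one point per library and a bar at the group mean. Gcg is the member for which all 14 tumors lie below all 10 normal libraries, and one KO-8-hetero tumor stands at 32.1 FPKM for Sct.

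Among the hormones of the L cell, Gcg separated the tissues completely. Gcg encodes proglucagon, from which L cells cut GLP-1 and GLP-2. In normal tissue it measured, in FPKM, 104 and 117 for KO-1-hetero, 76.8 and 88.9 for KO-8-hetero, 49.7 and 77.6 for KO-8-homo, 106 and 28.2 for WT-young and 92.5 and 56.5 for WT-old. In tumors it measured, in FPKM, 17.6, 8.04 and 25.6 for KO-1-hetero, 0.957, 6.22 and 19.4 for KO-8-hetero, 3.80, 9.19 and 8.59 for KO-8-homo, 2.42, 5.28, 4.85 and 13.0 for WT-young and 12.3 for WT-old. The lowest normal library, WT-young 2 at 28.2 FPKM, lay just above the highest tumor, KO-1-hetero 3 at 25.6 FPKM. Such separation in one direction over all 24 libraries was seen for 3.43% of tested genes, and for Gcg alone among the 9 tested members. On the log2 scale the tumor minus normal difference of Gcg was -3.15 ± 0.45 (SE, adjusted p = 1.34e-05) under the KO label and -3.10 ± 0.57 (SE, adjusted p = 0.000535) under the WT label.

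Insl5, an orexigenic peptide of colonic L cells, had the largest fitted fall of the members under the KO label and the widest spread in normal tissue. Its normal level, in FPKM, was 299 and 341 for KO-1-hetero, 251 and 544 for KO-8-hetero, 16.1 and 37.6 for KO-8-homo, 67.9 and 66.1 for WT-young and 23.0 and 174 for WT-old. Tumors ranged from 1.26 to 37.1 FPKM with a median of 9.54. The KO-labelled tissues overlapped, since KO-8-homo normal 1 lay below KO-1-hetero tumors 1 and 3 and KO-8-homo tumor 3. The difference was -3.70 ± 0.68 (SE, adjusted p = 0.000179) under the KO label and -2.92 ± 0.87 (SE, adjusted p = 0.0144) under the WT label, where the call was lost without WT-old normal 2 (-2.45, adjusted p = 0.0545). Without the 6 Xist libraries the Insl5 fall under the KO label was -1.24, with an adjusted p of 0.277, and the 2 KO-8-homo libraries were then the only KO-labelled normal tissue.

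Pyy, which encodes the satiety and ileal brake hormone peptide YY, was the most abundant member in 13 of 14 tumors and in 4 of 10 normal libraries. Normal tissue held, in FPKM, 260 and 221 for KO-1-hetero, 206 and 383 for KO-8-hetero, 49.4 and 90.6 for KO-8-homo, 95.6 and 151 for WT-young and 97.7 and 297 for WT-old. Tumors held, in FPKM, 80.9, 45.4 and 38.6 for KO-1-hetero, 4.95, 62.6 and 24.9 for KO-8-hetero, 40.3, 18.0 and 60.7 for KO-8-homo, 22.5, 86.6, 38.3 and 79.8 for WT-young and 88.4 for WT-old. Each WT-labelled tumor was below each WT-labelled normal library, by as little as 88.4 against 95.6 FPKM, whereas the KO-labelled ranges overlapped. The fitted difference was -2.27 ± 0.51 (SE, adjusted p = 0.00109) under the KO label. Under the WT label it was -1.35 ± 0.65 (SE) and did not pass the test (adjusted p = 0.115), and without the 6 Xist libraries the KO difference was -0.94 (adjusted p = 0.387). The 2 labels' differences were not shown to differ (interaction -0.92 ± 0.82 SE, adjusted p = 0.986).

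Sst, the gene of somatostatin, the D cell hormone that restrains neighbouring endocrine cells, fell under both labels. It measured in normal tissue, in FPKM, 6.01 and 12.5 for KO-1-hetero, 11.6 and 19.9 for KO-8-hetero, 22.6 and 15.2 for KO-8-homo, 23.2 and 2.64 for WT-young and 27.6 and 7.20 for WT-old. In tumors it measured, in FPKM, 4.45, 0.969 and 1.46 for KO-1-hetero, 0.172, 0.758 and 0.699 for KO-8-hetero, 0.887, 1.03 and 1.41 for KO-8-homo, 0.161, 0.0516, 0.0567 and 0.864 for WT-young and 0.703 for WT-old. Within each label all tumors were below all normal libraries. The difference was -2.78 ± 0.37 (SE, adjusted p = 6.92e-06) under the KO label and -3.18 ± 0.48 (SE, adjusted p = 8.13e-05) under the WT label. Somatostatin is also made by neurons of the gut wall: of 12 enteric neuron and glia genes, 7 were tested, and 4 were lower and 1 higher in tumor under the KO label, 5 lower under the WT label. Their summed level was 6.64 to 25.7 FPKM in KO-labelled tumors and 9.55 to 28.5 in KO-labelled normal tissue, and 4.28 to 11.2 against 13.1 to 36.6 FPKM under the WT label, and none of the 12 was at 0 throughout. Prph, a filament gene of peripheral neurons, fell by 1.57 (adjusted p = 2.15e-05) and 1.97 (adjusted p = 9.72e-05) under the KO and WT labels. The part of neurons in the Sst result was not tested.

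The granins fell to different degrees. Chga, whose product chromogranin A is the standard marker of endocrine cells, measured in normal tissue, in FPKM, 36.3 and 40.9 for KO-1-hetero, 41.8 and 65.7 for KO-8-hetero, 75.8 and 57.6 for KO-8-homo, 39.1 and 28.9 for WT-young and 83.7 and 43.8 for WT-old. In tumors Chga measured, in FPKM, 28.2, 30.7 and 9.08 for KO-1-hetero, 2.85, 5.11 and 6.29 for KO-8-hetero, 7.11, 8.39 and 15.3 for KO-8-homo, 3.21, 5.91, 7.60 and 18.4 for WT-young and 11.6 for WT-old. The tumors KO-1-hetero 1 and 2 came close to normal tissue, yet within each label no tumor reached a normal library. Chga differed by -2.27 ± 0.40 (SE, adjusted p = 0.000117) under the KO label and by -2.35 ± 0.51 (SE, adjusted p = 0.00177) under the WT label. With 3 of 9 members, Chga, Gcg and Sst, free of overlap under the KO label and 6 of 9 under the WT label (also Pyy, Insl5 and Cck), the shares over all tested genes were 7.05% and 10.9%.

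Chgb, the gene of chromogranin B, overlapped between tissues. It ranged from 6.32 to 41.5 FPKM in KO-labelled tumors (median 18.3) and from 21.6 to 99.6 FPKM in KO-labelled normal tissue (median 38.4). In WT-labelled tissue it was 7.37, 12.3, 13.1, 41.3 and 23.1 FPKM in the tumors and 52.3, 32.4, 97.5 and 49.2 FPKM in normal libraries. The fall was -1.20 ± 0.40 (SE, adjusted p = 0.0175) under the KO label and -1.65 ± 0.51 (SE, adjusted p = 0.0184) under the WT label. The KO call was lost without KO-8-homo normal 1 (-0.97, adjusted p = 0.0544), and the WT call without WT-young tumor 1 (-1.38, adjusted p = 0.0576) or without WT-old normal 1 (-1.36, adjusted p = 0.0775). In all 14 tumors Chgb stood above Chga, with a Chgb to Chga ratio of 1.35 to 3.61 and a median of 1.92, against 0.328 to 1.37 and a median of 1.14 in normal tissue.

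Tph1 was lower in the KO-labelled tumors, and its companions in serotonin handling moved both ways. Tph1 measured in normal tissue, in FPKM, 6.73 and 5.64 for KO-1-hetero, 4.25 and 3.31 for KO-8-hetero, 18.6 and 18.7 for KO-8-homo, 13.2 and 4.06 for WT-young and 11.8 and 5.10 for WT-old. In tumors it measured, in FPKM, 4.70, 5.03 and 3.07 for KO-1-hetero, 0.652, 4.32 and 2.48 for KO-8-hetero, 2.18, 1.08 and 3.47 for KO-8-homo, 1.96, 1.36, 1.87 and 8.03 for WT-young and 3.70 for WT-old. The ranges overlapped under both labels. The difference was -1.25 ± 0.38 (SE, adjusted p = 0.0109) under the KO label. Under the WT label it was -1.17 ± 0.49 (SE, adjusted p = 0.0718) and passed the threshold without WT-young tumor 4 (-1.48, adjusted p = 0.0246) or without WT-young normal 2 (-1.43, adjusted p = 0.0476).

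Mast cells also make serotonin with Tph1, and their genes moved the other way. Of 11 mast cell genes, 10 were higher and 1, Kit, lower in tumor under the KO label, and 8 were higher and Kit lower under the WT label. Their summed level was 80.3 to 528 FPKM in KO-labelled tumors against 17.3 to 41.0 FPKM in KO-labelled normal tissue, and 53.8 to 292 against 15.3 to 38.2 FPKM under the WT label, and none was at 0 throughout. Cpa3, the mast cell carboxypeptidase, rose by 2.47 (adjusted p = 1.09e-05) and 1.99 (adjusted p = 0.00212) under the KO and WT labels. Cpa3 and Fcer1a of this list passed the filter only through tumors, with normal libraries at most at 1.06 and 0.517 FPKM. Their tests are therefore not separate from the filter. The part of mast cells in the Tph1 level of tumors was not tested.

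Of the 5 tested genes of serotonin handling beside Tph1, 1 was higher and 3 were lower under the KO label, and 1 was higher and 2 were lower under the WT label. The single rise was Slc18a1, which encodes VMAT1, the transporter that loads monoamines into the granules of enterochromaffin cells. Slc18a1 was 1.27 to 2.59 FPKM in the 10 normal libraries and 0.928 to 21.5 FPKM in the 14 tumors, with medians of 1.74 and 12.1 FPKM. All 9 KO-labelled tumors but KO-1-hetero 3 and KO-8-hetero 2 exceeded the highest normal library, as did the 4 WT-young tumors, while the WT-old tumor was the lowest library of all. Slc18a1 rose by 1.72 ± 0.45 (SE, adjusted p = 0.00358) under the KO label and by 1.81 ± 0.57 (SE, adjusted p = 0.0203) under the WT label. The WT call was lost without WT-young tumor 1 (adjusted p = 0.0573), 2 (0.0523) or 3 (0.0506), or without the 4 Hoxb6-high normal libraries (1.96, adjusted p = 0.085), and the KO call without the 6 Xist libraries (1.75, adjusted p = 0.0734). The median ratio of Slc18a1 to Chga was 0.0391 in normal tissue and 0.730 in tumors.

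The monoamine oxidase genes, which break down serotonin, fell under both labels. Maoa, a monoamine oxidase, was 28.3 to 131 FPKM in tumors and 197 to 416 FPKM in normal tissue, and was lower under the KO (adjusted p = 1.01e-06) and WT (adjusted p = 0.000169) labels. Maob, the other monoamine oxidase, fell by 2.32 (adjusted p = 3.43e-06) and 1.80 (adjusted p = 0.00118). Slc6a4, the serotonin reuptake transporter of the epithelium, differed by -2.04 (adjusted p = 0.000378) under the KO label and by -1.21 (adjusted p = 0.0763) under the WT label. Without the 6 Xist libraries the KO difference of Slc6a4 was -0.65 (adjusted p = 0.342), and Slc6a4 passed under the WT label without WT-young normal 1 (-1.51, adjusted p = 0.0466), without the 4 Hoxb6-high normal libraries (-2.09, adjusted p = 0.00493) and with the posterior Hox covariate (-1.89, adjusted p = 0.0025). Ddc, the decarboxylase of the last synthetic step, ranged from 16.1 to 55.4 FPKM in tumors and from 20.5 to 70.4 FPKM in normal tissue.

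**Figure D2:**
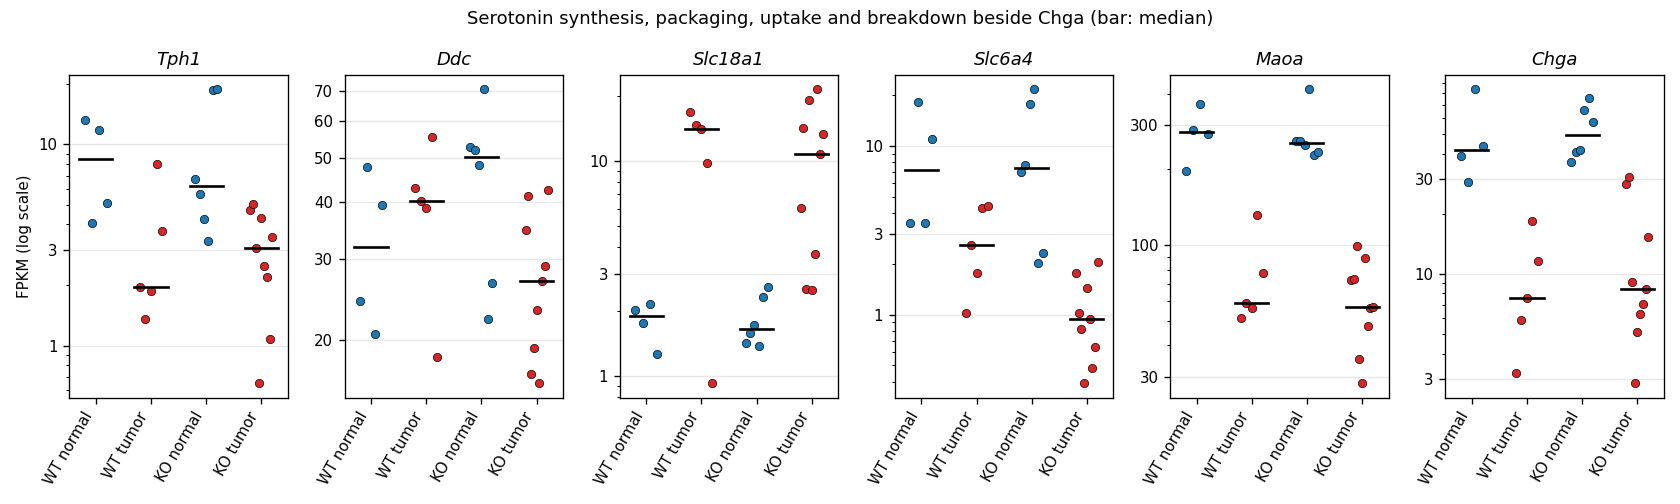
FPKM on a log axis for 5 genes of serotonin handling and for Chga, in WT-labelled and KO-labelled normal (blue) and tumor (red) libraries, one point per library with a bar at the median. Slc18a1 has a median of 12.1 FPKM in tumors against 1.74 FPKM in normal tissue, whereas Tph1, Slc6a4, Maoa and Chga have lower medians in tumors.

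Sct, Cck and Neurod1 were the members of lowest level in tumors beside Sst and Tph1, and they behaved differently from one another. Sct, the gene of secretin, measured in normal tissue, in FPKM, 5.97 and 5.52 for KO-1-hetero, 3.31 and 5.58 for KO-8-hetero, 35.5 and 32.8 for KO-8-homo, 27.3 and 3.93 for WT-young and 47.9 and 7.79 for WT-old. In tumors Sct measured, in FPKM, 1.75, 2.47 and 5.40 for KO-1-hetero, 32.1, 1.49 and 5.19 for KO-8-hetero, 1.58, 4.19 and 2.47 for KO-8-homo, 3.15, 3.50, 5.30 and 7.31 for WT-young and 2.53 for WT-old. Sct did not pass the test under either label (KO -1.16 ± 0.58 SE, adjusted p = 0.104, and WT -1.62 ± 0.74 SE, adjusted p = 0.0984). Under the KO label Sct passed without KO-8-hetero tumor 1 (-1.51, adjusted p = 0.0203) and without the 6 Xist libraries (-2.97, adjusted p = 0.018), which left the 2 KO-8-homo libraries as normal tissue. Under the WT label Sct passed without WT-young normal 2 (-2.17, adjusted p = 0.0398). That KO-8-hetero tumor had the lowest level of the 14 tumors for 7 of the 10 members, the others being Sst and Neurod1, where a WT-young tumor was lower, and Sct, which made up 64.5% of the members' summed FPKM in it.

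Cck, the gene of cholecystokinin, was lower in the pooled tumors of each label but not in KO-8-hetero. In KO-labelled normal tissue it held, in FPKM, 4.57 and 5.66 for KO-1-hetero, 1.69 and 1.92 for KO-8-hetero and 5.22 and 8.00 for KO-8-homo. The tumors held, in FPKM, 1.75, 0.80 and 3.73 for KO-1-hetero, 0.396, 2.55 and 3.79 for KO-8-hetero and 0.406, 1.49 and 0.638 for KO-8-homo. Of the KO-8-hetero tumors 2 lay above both normal libraries of that title, while the KO-1-hetero and KO-8-homo tumors lay below theirs. In the WT-labelled tissue its levels were 0.883, 0.935, 0.935, 0.768 and 0.737 FPKM in tumors and 9.44, 1.39, 4.15 and 2.93 FPKM in normal libraries, without overlap. The difference was -1.04 ± 0.33 (SE, adjusted p = 0.0133) under the KO label and -1.36 ± 0.42 (SE, adjusted p = 0.0182) under the WT label, where the call was lost without WT-young normal 1 (-0.98, adjusted p = 0.0866).

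Neurod1 was near or below 1 FPKM throughout. Its level was 0.0945 to 0.733 FPKM in KO-labelled tumors (median 0.211) and 0.400 to 1.18 FPKM in KO-labelled normal tissue (median 0.962). The WT-labelled tumors held 0.0891, 0.124, 0.126, 0.522 and 0.471 FPKM and the normal libraries 0.718, 0.643, 0.785 and 0.953 FPKM, so that these did not overlap. The log2(FPKM + 1) difference was -0.55 under the KO label (two-sided exact permutation test over 5005 splits, p = 0.0016, adjusted over 2 tests p = 0.0032) and -0.50 under the WT label (126 splits, exact permutation p = 0.0159, adjusted p = 0.0159). The WT value is the smallest two-sided p that 126 splits allow.

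**Figure D3:**
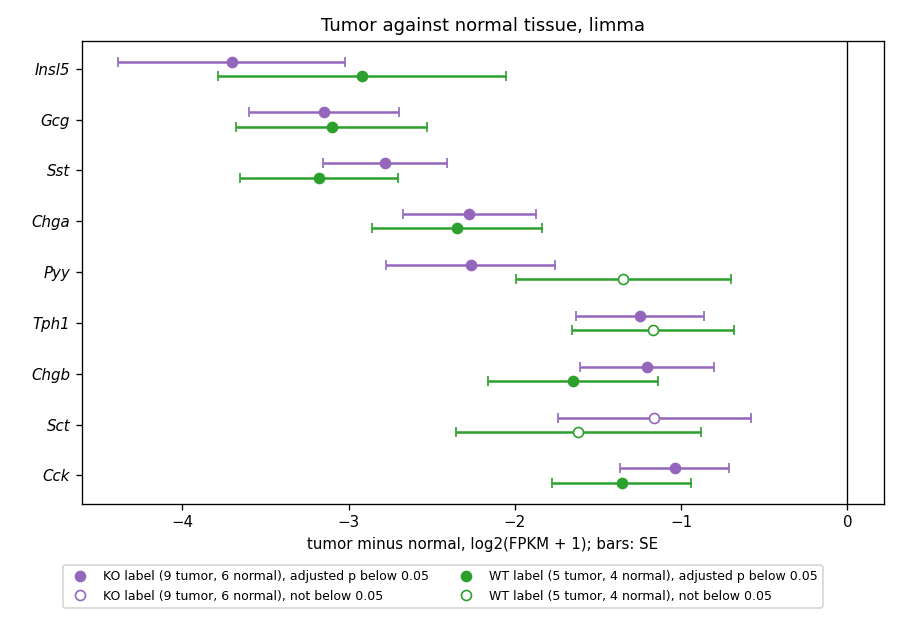
Tumor minus normal difference of log2(FPKM + 1) for the 9 tested members from limma, with SE bars, under the KO label (purple) and the WT label (green), where filled points have an adjusted p below 0.05. All 18 estimates are below 0, from -3.70 for Insl5 to -1.04 for Cck under the KO label, and Sct is open under both labels.

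Other genes of the enteroendocrine programme were listed beside the members, and their counts can be read against the 23.2% and 14.8% of all tested genes that were lower under the KO and WT labels. Some listed genes of low level passed the filter of at least 1 FPKM in at least 4 libraries only through normal tissue. For those genes the filter itself favours a fall, so the counts lean that way. Of 9 other granin and prohormone processing genes, 7 were tested, and 5 were lower under the KO label and 6 under the WT label, with none higher. Scg5, the chaperone of prohormone convertase 2, fell by 1.50 (adjusted p = 1.53e-06) and 1.30 (adjusted p = 0.000269) under the KO and WT labels. Pcsk1, the convertase that cuts proglucagon to GLP-1, did not pass under the KO label (-0.92, adjusted p = 0.0608) and was -1.67 under the WT label (adjusted p = 0.0163). Pcsk1 passed under the KO label without KO-1-hetero tumor 3 (limma adjusted p = 0.0494), KO-8-hetero normal 1 (0.0344) or KO-8-hetero normal 2 (0.0211), and failed under the WT label without WT-young normal 1 (0.0758) or WT-old normal 1 (0.0837). Under the KO label Pcsk1 also passed with quantile normalization (limma adjusted p = 0.0161) and with the covariate of general epithelial genes (0.0324). With the posterior Hox covariate its KO difference was -0.89 (limma adjusted p = 0.0024). Without the 6 Xist libraries the KO difference of Pcsk1 was -2.14 (adjusted p = 0.00941), and without the 4 Hoxb6-high normal libraries the differences were -0.38 (adjusted p = 0.247) under the KO label and -0.44 (adjusted p = 0.414) under the WT label. Of 10 other gut hormone genes, 6 were tested, with 4 lower under the KO label and 3 under the WT label. They included Gal, the galanin gene, which enteric neurons also express (-1.86, adjusted p = 0.00204, and -2.81, adjusted p = 0.00112). The KO difference of Gal was -3.04 without the 6 Xist libraries and its WT difference -1.53 without the 4 Hoxb6-high normal libraries, both still called.

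Of 15 transcription factors of the enteroendocrine lineage, 7 were tested. Under the KO label 5 were lower and 1 was higher, and under the WT label 3 were lower and 1 was higher. Of these factors, Neurog3 and Insm1 passed the filter only through normal tissue, with tumors at most at 1.10 and 0.884 FPKM. Their tests are therefore not separate from the filter. Neurog3, which starts the enteroendocrine programme, was 0.0856 to 1.10 FPKM in tumors and 1.13 to 2.29 FPKM in normal tissue, and fell by 0.81 (adjusted p = 0.00027) and 0.72 (adjusted p = 0.00877). The Neurog3 call was lost under the KO label without the 6 Xist libraries (-0.63, adjusted p = 0.0606). The rise was that of Isl1, a LIM homeobox factor of several endocrine cell types, named here after its values were seen. Isl1 was 0.195 to 1.74 FPKM in normal libraries and 0.773 to 26.2 FPKM in tumors, highest in WT-young tumors 1 and 2. It rose by 1.12 (adjusted p = 0.0243) under the KO label and by 2.46 (adjusted p = 0.00119) under the WT label, and the KO call was lost without KO-8-homo normal 1 (1.00, adjusted p = 0.0575), without the 2 Cela2a libraries (1.15, adjusted p = 0.0557) and without the 4 Hoxb6-high normal libraries (0.89, adjusted p = 0.134). Without the 6 Xist libraries the KO rise was 1.78 (adjusted p = 0.0487). Atoh1, the factor that commits cells to the secretory lineage, fell by 1.43 (adjusted p = 0.000297) and 1.82 (adjusted p = 0.000747). The other genes of its list, secretory lineage choice, differed in both directions. With the labels pooled, mean FPKM in tumors was 25.0 against 5.99 in normal tissue for Sox4 and 167 against 66.3 for Hes6. It was 5.48 against 3.07 for Notch1 and 7.41 against 4.61 for Dll4. Means were lower in tumors for Gfi1 (2.13 against 4.86), Dll1 (2.32 against 3.31) and Hes1 (30.6 against 35.1).

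Of 12 secretory vesicle genes, 10 were tested, and 6 were lower under the KO label and 7 under the WT label, with 1 higher under each. Scgn, a calcium sensor of endocrine granules, fell by 1.85 (adjusted p = 1.88e-06) and 1.57 (adjusted p = 0.000397). The higher gene was Stx1a, a SNARE protein of exocytosis (1.52, adjusted p = 1.08e-05, and 1.23, adjusted p = 0.00197). Of 17 genes for receptors and for inactivation of the member hormones, 10 were tested, with 8 lower under the KO label and 7 under the WT label. Sstr1, a somatostatin receptor, was 6.18 to 17.9 FPKM in normal tissue and 0.187 to 3.44 FPKM in tumors, and fell by 2.70 (adjusted p = 3.61e-07) and 2.74 (adjusted p = 1.88e-05). The receptors of secretin and of INSL5, Sctr and Rxfp4, were at most 0.165 and 0.123 FPKM in any library.

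Other epithelial lineages are given for scale. Of 7 goblet cell genes 6 were lower under the KO label and 4 under the WT label, and of 6 genes of absorptive colonocytes 4 were lower under each. Tuft cell genes differed in both directions. With the labels pooled, mean FPKM in tumors was 19.5 against 2.52 in normal tissue for Avil and 1.64 against 0.395 for Chil1. Means were lower in tumors for Dclk1 (1.55 against 2.76), Trpm5 (0.487 against 2.54) and Pou2f3 (0.322 against 0.901). The same held for Alox5 (1.18 against 1.78) and Ptgs1 (12.6 against 14.3). Of 8 general epithelial genes 2 were lower under the KO label and 0 under the WT label by limma (1 at an unadjusted p under 0.05). With the mean of those general epithelial genes as a covariate, 8 and 6 of the 9 members were still called lower. All 6 smooth muscle genes were lower in tumor under each label. Their summed level under the KO label was 235 to 1280 FPKM in tumors and 1390 to 4506 FPKM in normal tissue, without overlap. Under the WT label it was 172 to 2852 FPKM in tumors and 919 to 7073 FPKM in normal tissue. The part of tissue composition in the members' fall beyond that covariate was not tested.

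The genotype label itself was not accompanied by a called difference in any member. In tumors, KO against WT gave 0 of 9 members by limma, and 0 at an unadjusted p under 0.05, where 0.00725% and 8.31% of all genes were called. The estimates ran from -0.71 ± 0.54 (SE) for Pyy to 0.68 ± 0.40 (SE) for Sst. In normal tissue 0 of 9 were called by limma and 0 at an unadjusted p under 0.05, beside 0% and 4.67% of all genes, and the estimates ran from -0.53 ± 0.71 (SE) for Sct to 1.13 ± 0.83 (SE) for Insl5. The interaction of label and tissue likewise gave 0 of 9 by limma and 0 at an unadjusted p under 0.05 (0% and 4.74% of all genes). The standard errors of 0.35 to 0.83 on the log2 scale set how small a difference between the labels could be seen.

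Single titles were compared in the model of 10 groups. For KO-1-hetero against WT-young tumors, estimates ran from -0.51 for Sct and 0.07 for Pyy to 1.67 for Insl5. None of the 9 members passed limma's adjusted threshold, where 2.88% of all genes were called, but Chga, Insl5 and Sst had an unadjusted p under 0.05, as did 19.1% of all genes. Chga was 9.08 to 30.7 FPKM in the 3 KO-1-hetero tumors and 3.21 to 18.4 FPKM in the 4 WT-young tumors (1.33 ± 0.46 SE, adjusted p = 0.123). Insl5 was 13.4 to 37.1 FPKM against 2.87 to 9.92 FPKM (1.67 ± 0.62 SE, adjusted p = 0.152), and passed with the epithelial covariate (2.18, adjusted p = 0.0466). Sst was 0.969 to 4.45 FPKM against 0.0516 to 0.864 FPKM (1.26 ± 0.53 SE, adjusted p = 0.209). For KO-8-hetero against WT-young 0 of 9 were called (background 0.00725%), as for KO-8-homo against WT-young (background 0.457%), with 0 at an unadjusted p under 0.05 in either, beside 6.96% and 10.1% of all genes. These 3 comparisons share the WT-young tumors.

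Within normal tissue Sct, Tph1, Chgb and Pyy divided the libraries into the same 2 sets as Hoxb6, a gene of the axial Hox code. The 4 normal libraries with Hoxb6 above 5 FPKM also held 6.63 to 36.0 FPKM of Hoxb13 and 0.0745 to 0.902 FPKM of Hoxd13, which are posterior Hox genes, against 183 to 697 and 4.73 to 62.1 FPKM in the other 6. The labels do not give the segment of the colon. In those 4 libraries Sct was 27.3 to 47.9 FPKM, against 3.31 to 7.79 FPKM in the other 6. Tph1 was 11.8 to 18.7 against 3.31 to 6.73 FPKM, and Chgb 52.3 to 99.6 against 21.6 to 49.2 FPKM. Sct, Tph1 and Chgb were therefore higher in the Hoxb6-high libraries without overlap, as were 5.11% of all tested genes. Pyy was lower without overlap, at 49.4 to 97.7 against 151 to 383 FPKM, as were 4.09% of tested genes. Insl5 was 16.1 to 67.9 against 66.1 to 544 FPKM, a 9.08-fold difference of medians with WT-young normal 1 and 2 touching. Gcg did not follow this division (49.7 to 106 against 28.2 to 117 FPKM). The sets were drawn from the data after an unlabelled gene, so that these are descriptions without a test, and the sets cut across the genotype labels, with 2 of 6 KO-labelled and 2 of 4 WT-labelled normal libraries high in Hoxb6.

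Some companions of the members also divided these libraries, and others did not. Among those that overlapped were Tac1, a listed gut hormone gene (9.83 to 17.9 against 8.47 to 20.0 FPKM), and Scg5 (3.61 to 4.98 against 3.77 to 6.62 FPKM). Nts, Pcsk1 and Slc6a4 are given as examples of those without overlap. Nts, the neurotensin gene of distal ileal and proximal colonic endocrine cells, was 8.90 to 51.1 FPKM in the Hoxb6-high normal libraries and 0.135 to 0.491 FPKM in the other 6. Pcsk1 was 12.3 to 17.7 against 1.58 to 6.60 FPKM, and Slc6a4 2.02 to 3.49 against 7.03 to 21.6 FPKM. The ratio of Insl5 to Chga had a median of 0.464 in the Hoxb6-high set and of 7.12 in the other, and that of Sct to Chga 0.571 and 0.136. All 14 tumors had Hoxb6 below 5 FPKM, the highest being KO-1-hetero tumor 3 at 3.25 FPKM, so none of them matched the Hoxb6-high normal tissue. With the posterior Hox covariate and all libraries kept, the members called lower under the KO label were those of the full fit, Chgb, Tph1 and Cck included. Under the WT label Chga, Gcg, Insl5 and Sst were called with that covariate. Left out of the fit, a setting added after the data had been seen, the 4 libraries reduced the members called lower to 5 of 9 under the KO label (Chga, Gcg, Pyy, Insl5 and Sst) and to 4 of 9 under the WT label (Chga, Gcg, Insl5 and Sst). Sct then differed by -0.31 (adjusted p = 0.624) under the KO label and by -0.37 (adjusted p = 0.739) under the WT label. Chgb differed by -0.71 (adjusted p = 0.173) and -1.24 (adjusted p = 0.148) under the KO and WT labels, Tph1 by -0.66 (adjusted p = 0.128) and -0.53 (adjusted p = 0.474), and Cck by -0.75 (adjusted p = 0.0704) and -0.73 (adjusted p = 0.283). Sst stayed called, at -2.04 (adjusted p = 0.00768) under the WT label. Without the 6 Xist libraries, whose removal leaves only Hoxb6-high normal libraries under the KO label, Chgb, Tph1 and Cck differed by more than in the full fit, at -2.16 (adjusted p = 0.0181), -2.42 (adjusted p = 0.00476) and -1.89 (adjusted p = 0.00405).

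**Figure D4:**
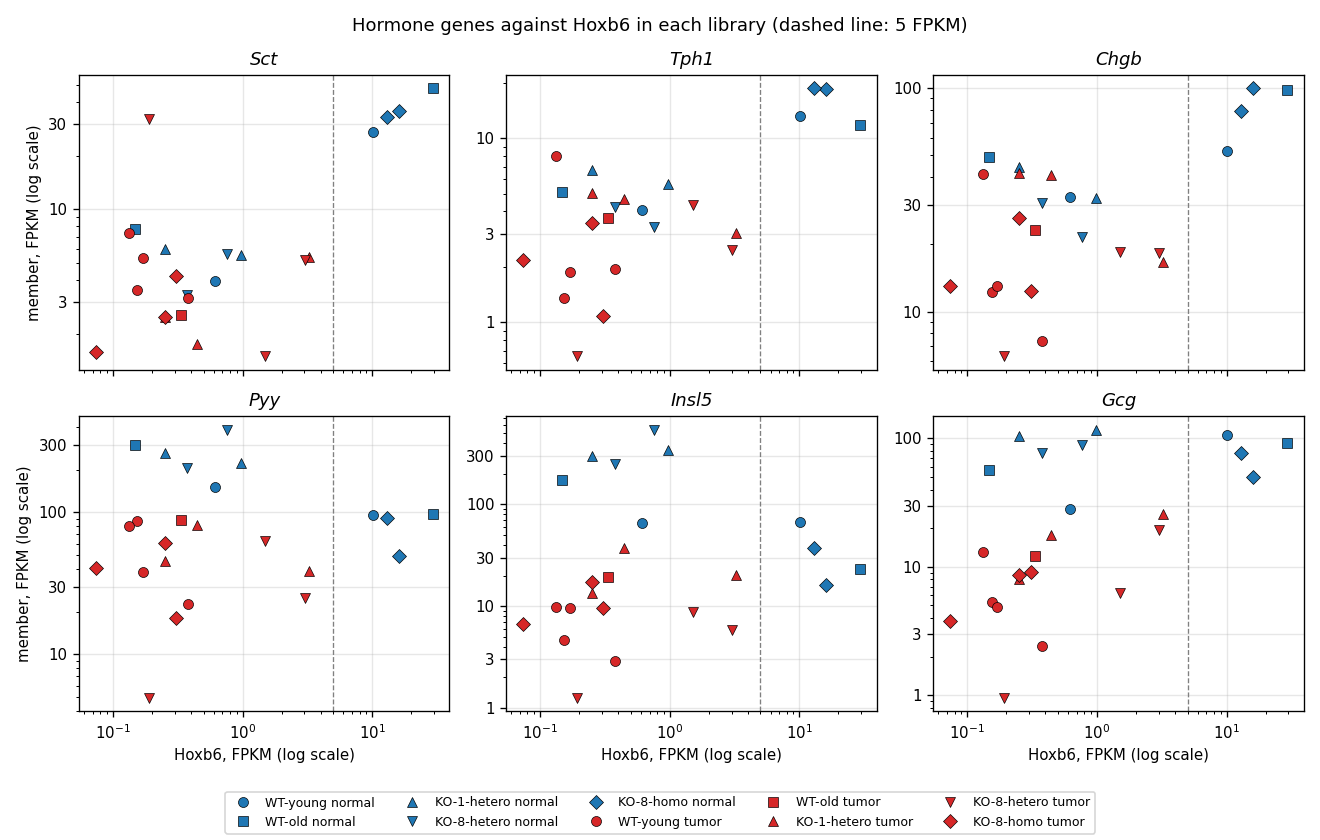
FPKM of 6 members against FPKM of Hoxb6, both on log axes, with one point per library, normal tissue in blue, tumors in red and one marker shape per title. To the right of the dashed line at 5 FPKM lie 4 normal libraries, in which Sct is 27.3 to 47.9 FPKM and Insl5 is 16.1 to 67.9 FPKM.

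Endocrine pancreas genes were read in the 2 libraries rich in Cela2a, since the pancreas also makes Gcg and Sst. Ins1 was listed at 0 in all 24 libraries and Ins2 at 0 in 23, with 0.118 FPKM in KO-1-hetero normal 2. Ppy, the pancreatic polypeptide gene that lies 5357 bases from Pyy on chromosome 11, was 43.1 FPKM in KO-8-hetero normal 1 and 11.5 FPKM in KO-8-homo normal 2, within the range of 6.55 to 80.5 FPKM of the 10 normal libraries. Without the 2 libraries rich in Cela2a, 7 members were called lower under the KO label, Chgb being lost (-1.13, adjusted p = 0.0559). The part of pancreatic tissue in the members' levels was not tested.

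Across the 14 tumors, some members varied together. Of 7 relations between members, each taken in tumors, in all normal libraries and in the 6 normal libraries low in Hoxb6 (21 in all, two-sided permutation tests), 4 passed the adjusted threshold in tumors. Chga with Chgb had r = 0.93 (permutation p = 4e-05, adjusted p = 0.00084) and rho = 0.85 (permutation p = 0.00036, adjusted p = 0.00756), and r = 0.90 without the 2 tumors farthest from the median of Chga. Gcg with Insl5, the L cell pair, had r = 0.78 (permutation p = 0.00128, adjusted p = 0.00896) and rho = 0.69 (permutation p = 0.00772, adjusted p = 0.0405), and r = 0.62 without 2 tumors. Chga with Tph1 had r = 0.73 (permutation p = 0.0032, adjusted p = 0.0168) and rho = 0.71 (permutation p = 0.00686, adjusted p = 0.0405), and r = 0.69 without 2 tumors. Pyy with Insl5 had r = 0.68 (permutation p = 0.0094, adjusted p = 0.0395), whereas rho = 0.51 did not pass (permutation p = 0.0648, adjusted p = 0.17), and r was 0.51 without 2 tumors. Gcg with Pyy (r = 0.53, permutation p = 0.06, adjusted p = 0.14, rho = 0.32, permutation p = 0.264, adjusted p = 0.463) did not pass, and r was 0.26 without 2 tumors. Gcg with Chga (r = 0.61, adjusted permutation p = 0.0639, rho = 0.61) and Chga with Sct (r = -0.40, adjusted permutation p = 0.247, rho = -0.16) did not pass either. For the normal libraries no pooled value is given because they fall into 2 sets, and in the 6 libraries low in Hoxb6 none of the 7 relations passed (permutation test, lowest adjusted p = 0.098).

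The genes whose pattern was most like each member were found by Pearson's r of log2(FPKM + 1) over the 24 libraries after centring on the mean of each tissue, as a description. Chga was nearest to Chgb (0.82) and Resp18 (0.81), an endocrine granule gene, and Chgb to Tph1 (0.88). Insl5 was nearest to Ppy (0.89), and Pyy to Acsm3 (0.84), Thbs4 (0.83) and Ppy (0.82). Sct was nearest to Ceacam12 (0.83), Hoxb9 (0.81) and Prap1 (0.81). Sst was nearest to Stmn3 (0.88), Prph (0.85) and Scg3 (0.84), of which Prph is a neuronal gene. Gcg was nearest to Aadac (0.92), and Cck to Kdelr3 (0.91) and Stc2 (0.90). Between members, Sct ran opposite to Pyy (-0.73) and Insl5 (-0.73) on this measure. The points share their libraries, and the division of the normal tissue by Hoxb6 enters all of these values.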

How the data were processed

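The deposited values were made by the authors as FPKM, 1 table of gene symbols per library, per the file headers. The submitters' processing notes name TopHat2 2.1.1, Bowtie2 2.2.8, SAMtools 0.1.18, Cuffdiff 2.2.1 and mm10. Per the labels' protocols, extraction used the miRNeasy Mini kit, and TruSeq Stranded mRNA reagents made the libraries. Fragment counts and the annotation are not given in the sources used here, so no count model and no counting interval was used, and depth is relative, from the steps between low values.

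Groups came from the sample titles. Values were taken as log2(FPKM + 1), a scale that understates changes of low genes, and 13799 genes with at least 1 FPKM in at least 4 libraries were kept. limma 3.58.1 (R 4.3.3, lmFit and eBayes with trend, two-sided) was fitted to all 24 libraries, once with 4 label-by-tissue groups and once with the 10 title groups, with Benjamini-Hochberg adjustment over all 13799 genes and a threshold of 0.05. Neurod1, below the filter, was compared by exact permutation tests, and relations between members by permutation tests with 100000 resamples (scipy 1.17.1). The fits were tested on simulated data. The members and the 17 other gene lists (178 genes with the members) were chosen with earlier results of these data known. Named genes are the members, up to 3 called genes of each list by smallest p under the KO label, and a few receptors, enzymes and markers. Alternatives were another pseudocount (0.1), filters, TPM scaling, quantile normalization, covariates, the replicate block and left-out libraries. Promoter sequences are RefSeq's for GRCm38.p6.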

Additional observations from a re-analysis of the deposited data

Results flagged for a closer look

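In 50 sets of 4 to 9 libraries, the highest or lowest value was compared with the rest by Dixon's ratio on the log2(FPKM + 1) scale, at a level where chance flags about 1 set in 20. The sets were not separate, since the WT-young tumors were also part of the sets of WT-labelled tumors. Sct in KO-8-hetero tumor 1 was 32.1 FPKM, far above the 1.49 to 5.40 FPKM of the other 8 KO-labelled tumors. Sst in KO-1-hetero tumor 1 was 4.45 FPKM, above the 0.172 to 1.46 FPKM of the other KO-labelled tumors. In WT-young tumor 4, Neurod1 was 0.522 FPKM and Tph1 was 8.03 FPKM, against 0.0891 to 0.126 and 1.36 to 1.96 FPKM in the other 3 WT-young tumors. That tumor also had the highest Chga (18.4 FPKM), Chgb (41.3 FPKM) and Gcg (13.0 FPKM) of the WT-young tumors. These 4 flags fell on 3 libraries.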

How the results depend on the processing

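All 9 tested members stayed lower in tumor under both labels in every alternative, and Chga, Gcg and Sst were called lower in all 28 alternatives under the KO label and all 22 under the WT label. Of 8 members called under the KO label, 5 remained on the TPM scale and 5 without the 4 normal libraries with Hoxb6 above 5 FPKM, in both cases Chga, Gcg, Pyy, Insl5 and Sst. Leaving out 1 library at a time gave 7 to 9 called members under the KO label and 5 to 8 under the WT label. The WT count of 6 became 4 with a posterior Hox covariate, without the WT-old libraries and without the Hoxb6-high libraries. Under the KO label the posterior Hox covariate left the called members unchanged. For KO-1-hetero against WT-young tumors, 1 member was called with the epithelial covariate. Neurod1 without the WT-old libraries differed by -0.48 under the WT label (exact permutation p = 0.133, the smallest two-sided p that 15 splits allow). The cause of these changes was not tested.

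Titles share replicate numbers, and with the replicate block 8 members were called under the KO label and 4 under the WT label. The deviations of same-numbered tumor and normal libraries correlated between -0.159 and 0.355 in 8 pairs, with 1 above 0.1. These correlations cannot show whether same-numbered libraries share an animal, because a tumor may differ from normal tissue of the same animal. FPKM gives no fragment totals, so the precision of Neurod1, Sst and Cck in tumors, where values lie near or below 1 FPKM, is not known.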
